A study of Mus musculus with 44 samples.

Results

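The genes described here take up fatty acids and prepare them for use, and they are 10 of the 54146 genes in a count table of cultured mouse astrocytes and microglia. They were taken by symbol and by no rule on measured values, though earlier results of these data were known. They are the lipase Lpl, the scavenger receptor Cd36, the fatty acid binding proteins Fabp3, Fabp5 and Fabp7, and the long-chain acyl-CoA synthetases Acsl1, Acsl3, Acsl4, Acsl5 and Acsl6. Each symbol matched a single row, and all 10 had enough counts to be tested in each of 16 comparisons.

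The libraries came from primary cells that had been purified from mice and then kept in media formulated for the human cell types, with no treatment. Each of the 2 cell types was represented by 6 libraries with unedited mouse Apoe (Apoe WT), 6 from APOE33 mice, 6 from APOE44 mice and 4 from mice without Apoe (Apoe KO), which makes 22 libraries per cell type and 44 in all. APOE33 and APOE44 are the usual names of mice that carry human APOE3 or human APOE4 in place of mouse Apoe. Both sexes were present in every group, with 1 female and 3 males in each Apoe KO group and 4 females and 2 males in each APOE33 group. All 32 APOE33, APOE44 and Apoe KO libraries are tagged batch 1 and all 12 Apoe WT libraries batch 2, although RNA extraction is described as a single batch. In comparisons with Apoe WT, therefore, a difference of genotype and a difference of batch cannot be told apart. The sources used here give no strain, age or origin of the lines. No label ties a replicate to an animal or a culture of its own, so p values measure only the spread between these libraries, which may be technical.

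Totals ran from 83239599 to 143150569 counts per library and RNA integrity numbers from 8.9 to 10. Levels are given as CPM, read counts scaled to a common library size. Mouse Apoe averaged 5813 CPM in Apoe WT astrocytes and 51373 in Apoe WT microglia, and between 11.4 and 55.1 in the other 6 groups. Astrocyte APOE33 replicate 1 has a genotype tag of WT but is APOE33 in its title and source; its mouse Apoe was at 21.3 CPM, against 4948 to 6397 CPM in Apoe WT astrocytes, and it was kept as APOE33. The 12 microglia and macrophage markers summed to 16160 to 27437 CPM in microglia and 105 to 392 CPM in astrocytes, and the 12 astrocyte markers to 10525 to 15685 CPM in astrocytes and 33.4 to 138 CPM in microglia. These are bulk libraries, in which fewer cells of a type and less RNA per cell cannot be told apart.

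Fatty acids reach a cell as free acids or are released from lipoprotein triglycerides by the secreted enzyme lipoprotein lipase, the product of Lpl. CD36 binds fatty acids and oxidised lipoproteins at the cell surface, and the small FABP proteins carry fatty acids through the cytosol. Acyl-CoA synthetases of the ACSL family join a fatty acid to coenzyme A, which commits it to membrane lipids, triglycerides or oxidation. In the brain, FABP7 is known as a binding protein of astrocytes and radial glia, and LPL and FABP5 as transcripts of lipid-laden and disease-associated microglia. ACSL4 prefers polyunsaturated acids such as arachidonate, and ACSL6 is known for the retention of docosahexaenoate in brain.

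The family members resemble each other in part, which bears on how reads are assigned. Over all columns of the aligned coding sequences, gaps included, identity was 65.1% between Acsl3 and Acsl4, 64.3% between Acsl1 and Acsl6, 62.6% between Acsl1 and Acsl5 and 60.3% between Acsl5 and Acsl6, and from 49.2% to 51.0% for the other Acsl pairs. By the same measure Fabp3 and Fabp7 shared 66.2%, Fabp3 and Fabp5 56.8% and Fabp5 and Fabp7 55.3%. Processed pseudogenes were closer. Fabp5 has 5 annotated copies with at least 90% identity over 200 or more bases, and their summed counts were 0.982% of those of Fabp5. The closest, Gm6166, is shown against bases 101 to 400 of the 408 of the Fabp5 coding sequence (GENCODE M21), because Fabp5 gave the largest change of the 10 genes inside batch 1 and the 2 loci can exchange reads. Over 407 aligned bases Gm6166 differs at 5, and it also holds 2 extra bases, which are not marked. Capitals mark the 4 differing bases in this stretch:
Fabp5: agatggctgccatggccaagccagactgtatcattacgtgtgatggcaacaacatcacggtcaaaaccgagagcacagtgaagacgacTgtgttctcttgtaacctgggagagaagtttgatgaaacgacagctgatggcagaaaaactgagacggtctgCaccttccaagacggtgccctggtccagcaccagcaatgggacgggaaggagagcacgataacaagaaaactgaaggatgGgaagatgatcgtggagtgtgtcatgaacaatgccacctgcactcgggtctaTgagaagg
Fabp3 has 1 such copy, Fabp3-ps1, with 1.74% of its counts, and the other 8 genes have none. Exons on the opposite strand also overlap: Fabp3 shares 81 exon bases with Zcchc17, whose counts were 356% of those of Fabp3, and Acsl5 shares 404 with Zdhhc6 (57.0%). Acsl3 shares 244 bases on its own strand with Utp14b (7.58%). Whether counting used strand is not given in the sources used here, so reads in those bases cannot be assigned with certainty.

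Acsl3 and Cd36 moved in opposite directions in Apoe KO microglia, and the 250 bases before their RefSeq start sites are shown for that reason (RefSeq, GRCm38.p6, written 5′ to 3′ on the gene's strand; capitals mark CCAAT and AGGTCA on either strand). The bases just after the Acsl3 start were found in a GENCODE M21 transcript of Acsl3, but those after the Cd36 start in none of Cd36. That Cd36 start also lies inside the annotated gene, whose 5′ end is at 17888801. Whether it is used in these cells was not tested. The Acsl3 window is chr1:78657575-78657824 (plus strand) and the Cd36 window chr5:17835897-17836146 (minus strand):
Acsl3: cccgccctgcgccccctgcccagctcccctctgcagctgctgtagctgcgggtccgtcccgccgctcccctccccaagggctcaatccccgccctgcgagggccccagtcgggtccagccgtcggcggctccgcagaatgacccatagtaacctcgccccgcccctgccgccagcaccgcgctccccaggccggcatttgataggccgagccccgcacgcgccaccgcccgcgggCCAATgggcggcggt
Cd36: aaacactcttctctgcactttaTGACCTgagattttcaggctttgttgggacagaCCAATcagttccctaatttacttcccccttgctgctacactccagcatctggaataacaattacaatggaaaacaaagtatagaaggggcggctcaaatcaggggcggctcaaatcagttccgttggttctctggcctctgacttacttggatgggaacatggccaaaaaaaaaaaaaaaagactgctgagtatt
A CCAAT box, the motif of the NF-Y factor, was in both windows, in those of Acsl5 and Fabp7, in 1 of 2 of Acsl1 and 2 of 3 of Acsl6, and in 33.8% of 32851 promoter windows of this length. AGGTCA, the core of the motif of PPAR, RXR and LXR receptors, was in the Cd36 window, as TGACCT, in that of Fabp7, in 1 of 3 of Acsl6, and in 14.0% of all windows. The paired forms of that motif, direct repeat 1 of PPAR and RXR and direct repeat 4 of LXR, were in none of the windows found for the 10 genes and in 0.0335% and 0.0152% of all windows, and the PU.1 core GAGGAAGT was in none of them and in 2.44% of all. TCACNCCAC, a sterol regulatory element, was in 1 of 2 windows of Acsl1 and in 1.05% of all windows. These are letters in a window and not evidence of binding. The table used held no entry for Fabp5 and Lpl.

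Microglia and astrocytes carried different sets of these genes. Among Apoe WT libraries, 7 of the 10 were higher and 3 lower in microglia, and all 10 passed the test, as did 89.5% of the 19331 genes tested; the share in batch 1 was again 10 of 10, beside 90.9% of all genes. A call means an edgeR quasi-likelihood adjusted p under 0.05, with p-values adjusted over all genes tested. Groups of Apoe WT libraries did not overlap for any of the 10. How many of all genes separate in this way was not counted, here or in any comparison below, so separation is no trait of the 10. Library scaling matters for the sizes: TMM factors differed by 0.51 on the log2 scale between cell types, and every microglia-against-astrocyte value would be lower by that amount with plain library totals, which turns no direction among the 10.

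Lpl (chromosome 8, 68880491 to 68907448, GRCm38, as for all positions given by chromosome) stood at 2924 ± 145 CPM (SD, n = 6) in Apoe WT microglia and at 10.0 ± 1.23 CPM (SD, n = 6) in Apoe WT astrocytes, a log2 difference of 8.13 (SE 0.096, adjusted p = 4.19e-17). Cd36 (chromosome 5, 17781690 to 17888801) stood at 627 ± 216 CPM in the microglia and 1.41 ± 0.366 CPM in the astrocytes (SD, n = 6 each; log2 8.72, SE 0.28). In the astrocytes both were below 0.5% of their microglia level in every genotype, at 0.342% to 0.474% for Lpl and 0.0997% to 0.225% for Cd36. The summed microglia markers were at 0.832% to 1.35% of their microglia level in the same libraries. The part of microglial RNA in these astrocyte values was not tested.

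Of the binding proteins, Fabp5 (chromosome 3, 10012548 to 10016607) stood at 817 ± 121 CPM in Apoe WT microglia and 20.5 ± 2.46 CPM in astrocytes (SD, n = 6 each; log2 5.26, SE 0.13). Fabp3 (chromosome 4, 130308595 to 130315463), best known from heart muscle, stood at 23.4 ± 1.79 and 0.363 ± 0.116 CPM (log2 5.94, SE 0.14). Its lowest astrocyte library held 13 counts, and its astrocyte level was 0.919% to 1.55% of that in microglia, a range that overlaps that of the microglia markers. Fabp7 (chromosome 10, 57784881 to 57788450) had the opposite pattern, at 46.4 ± 4.25 CPM in astrocytes and 19.1 ± 6.91 CPM in microglia (log2 -1.37, SE 0.19, adjusted p = 1.69e-05). Its microglia level was 31.5% to 54.5% of its astrocyte level by genotype, while the summed astrocyte markers in microglia were 0.358% to 0.896% of theirs.

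The synthetases divided by cell type. Acsl3 (chromosome 1, 78657825 to 78707743), an enzyme of the endoplasmic reticulum and lipid droplets, stood at 664 ± 8.07 CPM in Apoe WT astrocytes and 29.0 ± 2.24 CPM in microglia (SD, n = 6 each; log2 -4.58, SE 0.055). Acsl6 (chromosome 11, 54303798 to 54364756) stood at 248 ± 20.6 and 0.764 ± 0.299 CPM (log2 -8.42, SE 0.19). In microglia it was at 0.186% to 0.313% of its astrocyte level, which is below the ratio of the astrocyte markers in each genotype. Acsl4 (chromosome X, 142317993 to 142390535) was higher in microglia at 159 ± 8.66 against 19.2 ± 1.49 CPM (log2 2.98, SE 0.055), Acsl5 (chromosome 19, 55251938 to 55297720) at 150 ± 3.31 against 21.1 ± 1.02 CPM (log2 2.76, SE 0.034), and Acsl1 (chromosome 8, 46471037 to 46536051) at 82.8 ± 8.73 against 19.1 ± 1.79 CPM (log2 2.05, SE 0.076).

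**Figure D1:**
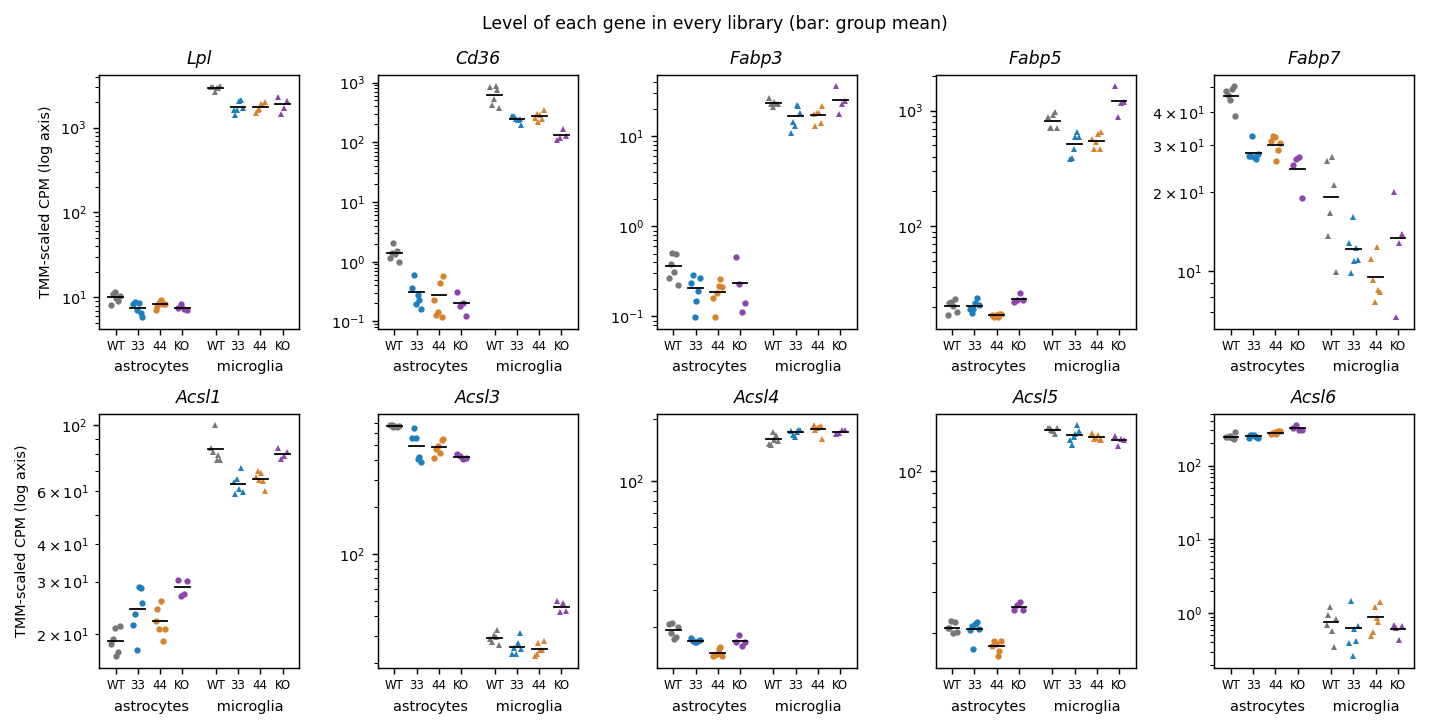
TMM-scaled CPM (log axis) of the 10 genes in all 44 libraries, with circles for astrocytes, triangles for microglia and a bar at each group mean; 33 and 44 stand for APOE33 and APOE44. Lpl, Cd36, Fabp3, Fabp5, Acsl1, Acsl4 and Acsl5 lie higher in microglia, and Fabp7, Acsl3 and Acsl6 higher in astrocytes.

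Per kilobase of annotated exon, a scale on which genes can be compared, Acsl3 was the most abundant of the 10 in astrocytes of every genotype, at 153 ± 1.85 CPM per kb in Apoe WT (SD, n = 6), ahead of Fabp7 at 37.1 ± 3.4 and Acsl6 at 25.0 ± 2.08. In APOE33 astrocytes the ranges of Acsl6 (25.2 ± 1.33) and Fabp7 (22.5 ± 1.74) overlapped. Cd36 was lowest in every astrocyte group, and its range overlapped that of Fabp3 in all but Apoe KO. In Apoe WT microglia Lpl (279.1 ± 13.9 CPM per kb) overlapped Fabp5 (229 ± 33.9), which overlapped Cd36 (175 ± 60.3), and the next gene, Acsl5 (30.9 ± 0.681), lay below all 3. Lpl and Fabp5 also overlapped in APOE33 and APOE44. In Apoe WT microglia Acsl6 was lowest at 0.0771 ± 0.0302. Only in Apoe KO microglia was Fabp5 first with no overlap, at 342 ± 87.1 against 179 ± 36.9 for Lpl (SD, n = 4 each); the change of order itself was not tested. Exon lengths are unions over all annotated transcripts (3567 bases for Fabp5 and 10478 for Lpl), so the order depends on the annotation.

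As shares of the summed Acsl level per kb, Acsl3 made up 81.5% ± 1.02 and Acsl6 13.3% ± 0.933 in Apoe WT astrocytes (SD, n = 6). Acsl4 and Acsl5 made up 39.2% ± 1.2 and 41.3% ± 1.71 in Apoe WT microglia. Of the 3 Fabp genes, Fabp7 held 73.8% to 85.7% of the summed level per kb in astrocytes and Fabp5 82.6% to 89.3% in microglia, by group mean. These shares depend on the annotated exon lengths, 1250 bases for Fabp7 and 3567 for Fabp5. Before division by length, Fabp7 stood at 24.5 CPM and Fabp5 at 23.6 CPM in Apoe KO astrocytes.

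**Figure D2:**
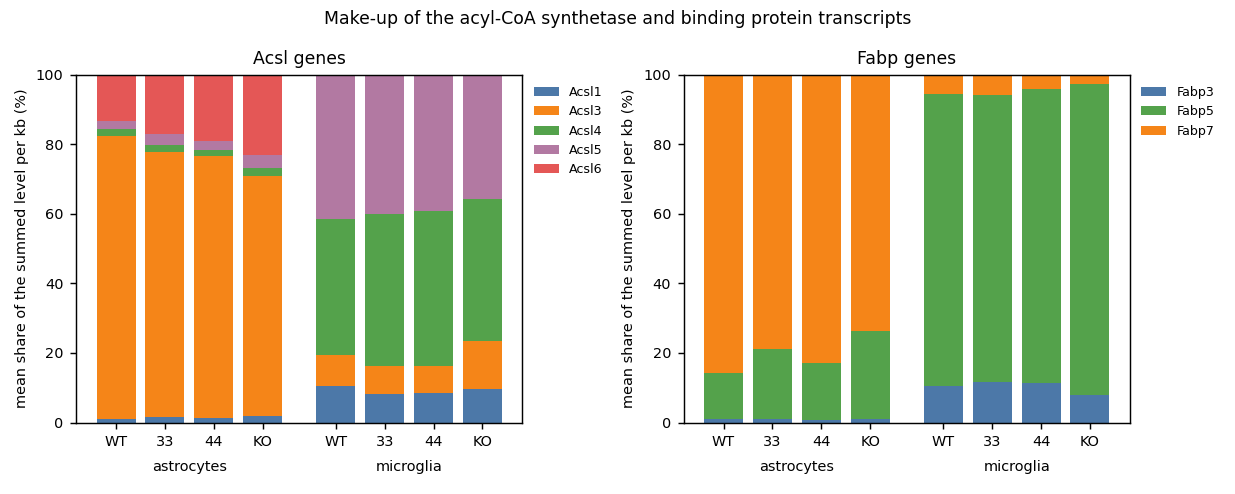
Mean share (%) of each gene in the summed level per kb of the 5 Acsl genes (left) and the 3 Fabp genes (right) for the 4 genotypes of each cell type. Acsl3 and Acsl6 fill most of the astrocyte bars and Acsl4 and Acsl5 most of the microglia bars; in Apoe KO the Acsl3 share is 68.9% in astrocytes and 13.5% in microglia.

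In microglia without Apoe, 4 of the genes rose and 1 fell against APOE33, all within batch 1. Those that rose were Fabp5 2.43-fold, Acsl3 1.84-fold, Fabp3 1.58-fold and Acsl1 1.25-fold, and Cd36 fell 1.80-fold. The 5 calls of 10 stand beside 22.7% of all genes called in this comparison. The median log2 value of the 10 was 0.16, against -0.020 over all 17143 genes tested. Against APOE44 the calls were Fabp5, Acsl3, Acsl1 and Cd36, in the same directions, 4 of 10 beside 26.9% of all genes. Both comparisons use the same 4 Apoe KO libraries, so they are not independent.

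Fabp5 stood at 1631, 877, 1176 and 1190 CPM in Apoe KO replicates 1 to 4. In APOE33 microglia it ran from 385 through a median of 528 to 659 CPM, and in APOE44 from 463 through 549 to 648. All Apoe KO libraries lay above all APOE33 and APOE44 libraries, with replicate 1, the only female library of the group, well above the other 3. The log2 difference was 1.28 against APOE33 (SE 0.18, adjusted p = 0.000196) and 1.16 against APOE44 (SE 0.17, adjusted p = 0.000254). With any 1 library left out, the value against APOE33 stayed between 1.09 and 1.39 and was called.

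Acsl3 stood at 50.2, 42.7, 48.4 and 43.0 CPM in Apoe KO microglia. The APOE33 libraries ran from 22.8 through 24.7 to 31.0 CPM and the APOE44 libraries from 22.1 through 24.2 to 27.8. The groups did not overlap, and the log2 difference was 0.88 against APOE33 (SE 0.084, adjusted p = 5.67e-06) and 0.92 against APOE44 (SE 0.080, adjusted p = 2.27e-06). As a share of the summed Acsl level per kb, Acsl3 was 13.5% ± 0.812 in Apoe KO (SD, n = 4), 7.99% ± 0.649 in APOE33 and 7.70% ± 0.858 in APOE44 (SD, n = 6 each). The summed astrocyte markers were also higher in Apoe KO microglia, at 93.0 to 138 CPM against 33.4 to 89.4 CPM in APOE33, and Acsl3 is abundant in astrocytes. Of 11 markers tested 2 rose and 0 fell (median log2 0.51), and the median level of the 12 markers was 1.47 CPM in Apoe KO and 1.63 CPM in APOE33. The summed markers reached 0.896% of their astrocyte level and Acsl3 reached 10.9% of its own. Acsl6, the other synthetase abundant in astrocytes, stood at 0.602 ± 0.115 CPM in Apoe KO and 0.636 ± 0.436 in APOE33 microglia. The part of astrocyte RNA in the Acsl3 value was not tested.

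Cd36 stood at 109, 119, 166 and 129 CPM in Apoe KO microglia. It ran from 196 through 246 to 278 CPM in APOE33 and from 221 through 268 to 346 in APOE44, so all 4 Apoe KO libraries were below both groups. The log2 difference was -0.85 against APOE33 (SE 0.14, adjusted p = 0.000605) and -1.02 against APOE44 (SE 0.14, adjusted p = 9.31e-05). Without any 1 library the value against APOE33 ranged from -0.97 to -0.65 and was called.

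Acsl1, a synthetase known for oxidation and triglyceride storage in fat and muscle, stood at 83.5, 76.9, 78.6 and 81.3 CPM in Apoe KO microglia, above the 58.7 to 71.9 CPM of the APOE33 libraries. The difference was 0.32 on the log2 scale (SE 0.058, adjusted p = 0.000834) against APOE33 and 0.27 (SE 0.056, adjusted p = 0.00196) against APOE44. Fabp3 stood at 36.2, 17.7, 23.0 and 24.6 CPM in Apoe KO and from 10.95 through 16.3 to 22.1 CPM in APOE33, with 3 of 4 Apoe KO libraries above the APOE33 range. Its log2 difference was 0.66 (SE 0.22, adjusted p = 0.0413). It lost this call when APOE33 replicate 2 or 3 was left out, or Apoe KO replicate 1, 3 or 4 (log2 0.44 to 0.77 over all libraries left out, adjusted p up to 0.295). It was also lost in 3 other fits, with log2 values of 0.67 without a filter on low counts, 0.58 without the sex term and 0.70 with only the Apoe KO and APOE33 libraries. Against APOE44 Fabp3 was at 0.59 (SE 0.21, adjusted p = 0.0521) and not called, but it was called without Apoe KO replicate 2 (adjusted p = 0.0329) and by DESeq2 (adjusted p = 0.0148). Without that replicate Fabp7 was also called against APOE44 (log2 0.70, adjusted p = 0.0118), from 0.49 (SE 0.23, adjusted p = 0.127) with all libraries.

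The other 5 genes did not pass in Apoe KO microglia. Against APOE33, Lpl was at a log2 value of 0.16 (SE 0.13, adjusted p = 0.406), with 2324, 1431, 1725 and 2041 CPM in Apoe KO and 1419 through 1650 to 2142 CPM in APOE33. Acsl4 was at -0.024 (SE 0.043) and Acsl5 at -0.089 (SE 0.049), the 2 most precise values of the comparison. Fabp7 was at 0.15 (SE 0.23), and without Apoe KO replicate 1 at -0.17. Acsl6, close to background here, was at 0.074 (SE 0.43).

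Markers of other cells moved in the same libraries. The 8 border macrophage and monocyte markers summed to 1749 to 1934 CPM in Apoe KO microglia and 1093 to 1541 CPM in APOE33; 4 of 5 tested rose and none fell, among them Mrc1, Ms4a7 and Pf4. Ly6c2 was at 0 in every APOE33 microglia library. Of the 12 microglia markers 4 fell, among them Tmem119 and P2ry12, and none rose. Of 10 oligodendrocyte lineage markers tested 4 fell and 0 rose (median log2 -2.06), and the 11 listed summed to 220 to 258 CPM in Apoe KO and 244 to 349 CPM in APOE33. Of 4 mural and fibroblast markers tested 1 rose and 1 fell (median -0.74), and of 4 endothelial markers 1 rose and 1 fell (median -0.13). The 5 adipocyte markers, a source of Fabp4, Cd36 and Lpl elsewhere, summed to at most 0.0601 CPM in microglia of batch 1. The part of these cell types in the values of the 5 called genes was not tested.

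**Figure D3:**
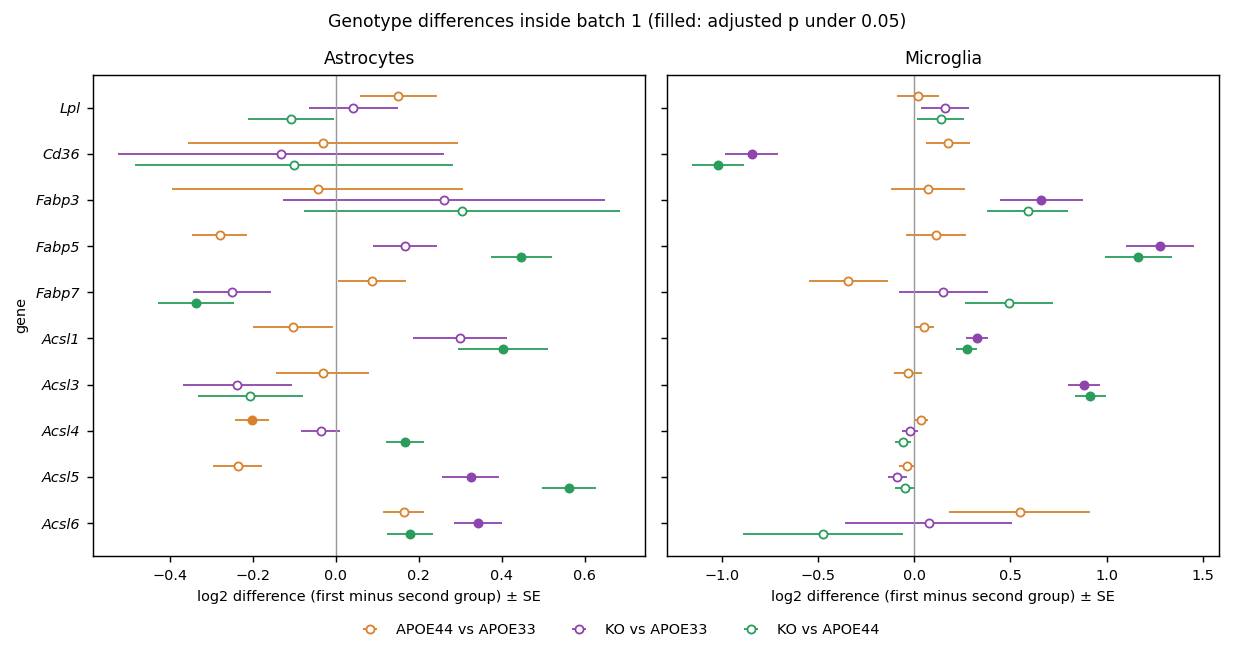
Log2 difference ± SE between genotypes of batch 1 for each gene in astrocytes (left) and microglia (right; the horizontal scales differ), filled where the adjusted p is under 0.05. In microglia Fabp5 (1.28 against APOE33) and Acsl3 (0.88) lie to the right and Cd36 (-0.85) to the left in both comparisons with Apoe KO, and no APOE44 against APOE33 value of the microglia panel is filled.

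In astrocytes without Apoe, 2 of the synthetases rose against APOE33. Acsl6 rose 1.27-fold and Acsl5 1.25-fold, the 2 calls among the 10 genes, beside 17.2% of all genes called. The median log2 value of the 10 was 0.10, against 0.0025 over all 20481 genes tested. Against APOE44, Acsl5, Fabp5, Acsl1, Acsl6 and Acsl4 rose and Fabp7 fell, 6 of 10 beside 22.7% of all genes. Here too the same 4 Apoe KO libraries enter both comparisons.

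Acsl6 stood at 327, 352, 308 and 306 CPM in Apoe KO astrocytes, all above the APOE33 range of 234 through 252 to 264 and the APOE44 range of 265 through 285 to 297. The log2 difference was 0.34 against APOE33 (SE 0.057, adjusted p = 0.00123) and 0.18 against APOE44 (SE 0.055, adjusted p = 0.0279). The call against APOE44 was lost without APOE44 replicate 1 or 4 or Apoe KO replicate 1 or 2 (log2 0.14 to 0.20, adjusted p up to 0.103). Acsl5 stood at 25.1, 26.4, 27.3 and 25.1 CPM in Apoe KO, above the 17.1 through 21.1 to 22.3 CPM of APOE33 and the 15.9 through 17.8 to 18.5 CPM of APOE44. Its difference was 0.32 (SE 0.068, adjusted p = 0.00504) and 0.56 (SE 0.065, adjusted p = 4.63e-05). Microglia hold more Acsl5. Their markers summed to 185 to 363 CPM in Apoe KO and 125 to 392 CPM in APOE33 astrocytes, with 1 of 12, Aif1, called higher (median log2 0.80). Other markers moved too. Against APOE33, 2 of 12 astrocyte markers rose and 2 fell, and 0 of 11 oligodendrocyte lineage markers rose and 3 fell (median -0.39). Of 6 ependyma and choroid plexus markers 0 rose and 2 fell (-1.22). Of 7 mural and fibroblast markers 1 rose and 2 fell, and of 5 border macrophage markers 1 rose. Against APOE44, 2 of 12 astrocyte markers rose and 5 fell. The part of these cell types in the values was not tested.

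Fabp5 in Apoe KO astrocytes, at 22.03, 23.0, 26.5 and 22.8 CPM, was above the APOE44 libraries (16.4 through 17.1 to 17.5 CPM; log2 0.45, SE 0.074, adjusted p = 0.000609) and overlapped the APOE33 libraries (17.7 through 20.1 to 23.9 CPM; log2 0.17, SE 0.077, adjusted p = 0.145; called without APOE33 replicate 5, adjusted p = 0.0461). Acsl1 stood at 30.4, 26.9, 27.4 and 30.1 CPM, a log2 value of 0.40 against APOE44 (SE 0.11, adjusted p = 0.0144) and 0.30 against APOE33 (SE 0.11, adjusted p = 0.0778). Without APOE33 replicate 4 or 6 the latter was called (adjusted p = 0.0481 and 0.039). Fabp7 stood at 25.3, 26.7, 27.1 and 18.9 CPM, a log2 value of -0.34 against APOE44 (SE 0.092, adjusted p = 0.0156) and -0.25 against APOE33 (SE 0.095, adjusted p = 0.0791). Acsl4 was at 0.17 against APOE44 (SE 0.046, adjusted p = 0.0161), a call that was lost without Apoe KO replicate 1 or 2 (adjusted p up to 0.0639) and without a filter on low counts (adjusted p = 0.0745). Acsl3, the most abundant of the set, stood at 440, 428, 406 and 417 CPM, inside the APOE33 range of 392 through 490 to 644 CPM (log2 -0.24, SE 0.13, adjusted p = 0.222). APOE33 replicates 1 to 3 were at 558, 644 and 559 CPM and replicates 4 to 6 at 411, 422 and 392. Its share of the Acsl level per kb was 68.9% ± 0.854 in Apoe KO (SD, n = 4) and 76.1% ± 3.67 in APOE33 (SD, n = 6), and that of Acsl6 23.1% ± 0.9 and 17.2% ± 2.34. Lpl, Cd36 and Fabp3 were low and not called in either comparison.

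The difference between Apoe KO and APOE33 was not the same in the 2 cell types for 3 of the genes. In a joint fit of the 32 libraries of batch 1, the Apoe KO against APOE33 difference was larger in microglia by 1.11 for Acsl3 (SE 0.17, adjusted p = 5.27e-05) and by 1.11 for Fabp5 (SE 0.21, adjusted p = 0.000582), and lower in microglia by 0.42 for Acsl5 (log2 -0.42, SE 0.086, adjusted p = 0.00144). These 3 calls of 10 stand beside 12.7% of all genes. For Cd36 the difference between cell types was -0.71 (SE 0.40, adjusted p = 0.273), with the astrocyte level under 1 CPM. For Acsl1 it was 0.019 (SE 0.13, adjusted p = 0.978) and for Acsl4 0.0073 (SE 0.059, adjusted p = 0.988).

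Between APOE44 and APOE33 the differences were small. In astrocytes Acsl4 was the single call, 1 of 10 beside 0.703% of all genes. It ran from 14.4 through 14.7 to 16.02 CPM in APOE44 and from 16.8 through 17.0 to 17.7 CPM in APOE33, with no overlap, and the log2 difference was -0.20 (SE 0.041, adjusted p = 0.0279). Acsl4 lost its call when any of 7 libraries was left out, APOE33 replicates 1, 3 and 6 and APOE44 replicates 1, 2, 3 and 6 (log2 -0.22 to -0.19, adjusted p up to 0.0798). It was also lost without a filter on low counts (log2 -0.21) and with only the 2 groups in the fit (-0.20). Fabp5 and Acsl6 did not overlap between the groups either, at log2 values of -0.28 (SE 0.066, adjusted p = 0.075) and 0.16 (SE 0.049, adjusted p = 0.217), and Acsl5 was at -0.24 (SE 0.059, adjusted p = 0.0971). None of these was called by edgeR with all libraries, and how many of all genes do not overlap was not counted. Fabp5 was called without APOE33 replicate 2 (adjusted p = 0.0255) and Acsl5 without APOE33 replicate 3 (adjusted p = 0.0095). DESeq2 called 3 of the 10, Fabp5 and Acsl5 in addition to Acsl4. The 0.703% is the edgeR share, and no DESeq2 share of all genes is given here.

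In APOE44 microglia 0 of the 10 were called by edgeR against APOE33, beside 0.84% of all genes, and 0 by DESeq2. In the edgeR fit 0 of the 10 had an unadjusted p under 0.05, beside 2037 of the 17143 genes tested. The log2 values ran from -0.34 for Fabp7 (SE 0.21) to 0.55 for Acsl6 (SE 0.37), which is near background there. Those of the 3 genes that moved most with the loss of Apoe were 0.11 for Fabp5 (SE 0.16), -0.035 for Acsl3 (SE 0.073) and 0.17 for Cd36 (SE 0.11). For Acsl4 the log2 value of APOE44 against APOE33 was -0.20 in astrocytes and 0.037 in microglia (SE 0.036, not called), and the microglia minus astrocyte difference was 0.24 (SE 0.051, adjusted p = 0.0284), the 1 call of 10 beside 0.296% of all genes. That call was lost without any of 8 libraries, namely astrocyte APOE33 replicate 1, astrocyte APOE44 replicates 1, 2 and 6, microglia APOE33 replicate 3 and microglia APOE44 replicates 1, 2 and 4 (log2 0.21 to 0.27, adjusted p up to 0.0731).

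Against Apoe WT, where genotype and batch cannot be told apart, most of the genes differed, as did much of the transcriptome. In astrocytes 7 of 10 were called in APOE33 (39.0% of all genes), 9 in APOE44 (41.7%) and 8 in Apoe KO (38.3%). In microglia 8 were called in APOE33 (44.8%), 9 in APOE44 (45.4%) and 6 in Apoe KO (42.4%). The comparisons share the Apoe WT libraries. Markers of cell types moved in them too. Of 12 microglia markers 10 were higher in APOE33 and 10 in APOE44 microglia than in Apoe WT, with 0 lower (median log2 0.53 and 0.49), and in Apoe KO 8 were higher and 1 lower (0.37). Of 10 oligodendrocyte lineage markers 5, 9 and 3 were higher in APOE33, APOE44 and Apoe KO microglia, and of 11 in astrocytes 9, 9 and 3 were higher, with at most 1 lower in each comparison. Their median in Apoe KO microglia was -0.40. In the same order, 4, 4 and 5 of 8 mural and fibroblast markers were lower in microglia and 0, 2 and 1 higher (medians -2.26, -2.01 and -3.47). Of 4 ependyma and choroid plexus markers 3, 3 and 2 were lower and 0, 0 and 1 higher (-2.10, -1.80 and -1.67). Cfd, the 1 adipocyte marker tested there, was lower in each (-7.99, -6.18 and -8.01). The part of these cell types in the values was not tested. Some of these calls were lost when single libraries were left out, namely Fabp3 and Acsl1 in APOE33 astrocytes (6 and 4 libraries), Fabp3 and Acsl6 in APOE44 astrocytes (Apoe WT replicate 5 for Fabp3, 7 libraries for Acsl6), Fabp3 (APOE33 replicate 3), Fabp7 (7 libraries) and Acsl3 in APOE33 microglia, Fabp3 (7) and Acsl5 (9) in APOE44 microglia, and Acsl4 (8) and Fabp5 in Apoe KO microglia. Fabp3 in Apoe KO astrocytes, at a log2 value of -0.66 and not called, was called at -1.24 without Apoe KO replicate 1. Cd36 and Lpl were lower than in Apoe WT in all 3 genotypes of both cell types. In microglia Cd36 was at log2 values of -1.37 in APOE33 (SE 0.17), -1.18 in APOE44 (SE 0.17) and -2.16 in Apoe KO (SE 0.21). The Apoe WT microglia spread widely for this gene, at 834, 420, 526.2, 872, 741 and 372 CPM in replicates 1 to 6, and all 6 were above every other microglia library.

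Lpl in microglia was at -0.75 in APOE33 (SE 0.10), -0.74 in APOE44 (SE 0.10) and -0.62 in Apoe KO (SE 0.12), with Apoe WT libraries at 2657 through 2956 to 3086 CPM and no overlap. Fabp5 and Acsl3 changed sides: Fabp5 was at -0.68 in APOE33 (SE 0.15), -0.57 in APOE44 (SE 0.15) and 0.59 in Apoe KO (SE 0.17), and Acsl3 at -0.19 (SE 0.070), -0.23 (SE 0.070) and 0.68 (SE 0.078). Without Apoe KO replicate 1 the Fabp5 value in Apoe KO was 0.43 and not called (adjusted p = 0.0696). The Acsl3 call in APOE33 was lost without Apoe WT replicate 3 or 5 or APOE33 replicate 1, 2, 3 or 6, with adjusted p up to 0.0975. Acsl1 was lower in APOE33 and APOE44 microglia (-0.38 and -0.32, SE 0.057 and 0.056) and at -0.039 in Apoe KO (SE 0.064, adjusted p = 0.664).

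In astrocytes Acsl3 was lower than in Apoe WT by log2 values of -0.45 in APOE33 (SE 0.096), -0.49 in APOE44 (SE 0.095) and -0.69 in Apoe KO (SE 0.11). The 6 Apoe WT libraries lay between 654 and 671 CPM, above every other astrocyte library. Fabp7 was lower by -0.74 (SE 0.081), -0.65 (SE 0.080) and -0.97 (SE 0.093), with Apoe WT at 38.8 through 47.6 to 50.4 CPM and the next highest library at 32.5. Cd36 was at -2.43 in APOE33 (SE 0.31), from a level of 1.41 CPM in Apoe WT. Border macrophage markers in the same astrocyte libraries summed to 25.3 to 74.9 CPM in Apoe WT and 5.3 to 12.2 CPM in APOE33, and the part of such cells in the Cd36 value was not tested. Acsl6 was at 0.33 in Apoe KO (SE 0.060, adjusted p = 0.000182), 0.15 in APOE44 (SE 0.054) and -0.0052 in APOE33 (SE 0.054).

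**Figure D4:**
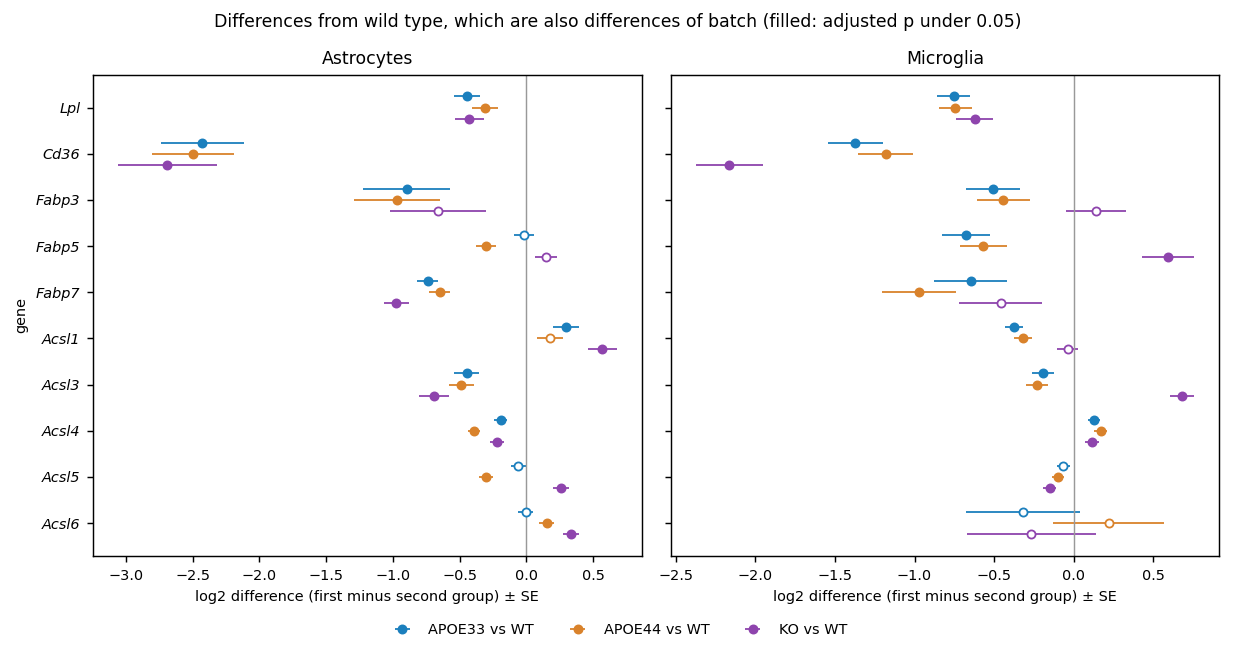
Log2 difference ± SE from Apoe WT, which is also a difference of batch, for each gene in astrocytes (left) and microglia (right), filled where the adjusted p is under 0.05. Cd36 and Lpl lie left of 0 in all 3 genotypes of both cell types, and in microglia Fabp5 and Acsl3 lie left of 0 in APOE33 and APOE44 and right of 0 in Apoe KO.

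Other genes of fatty acid handling were read from 6 lists with 88 genes. In Apoe KO microglia against APOE33, 12 rose and 7 fell of 72 tested (median log2 -0.0055), beside 22.7% of all genes called. Of the other binding and transport proteins 4 of 9 rose and 0 fell, with a median of 0.56: the fatty acid transporter Slc27a1 from 140 to 213 CPM by group mean (log2 0.58, SE 0.061, adjusted p = 1.31e-05), Slc27a6 from 1.04 to 4.1 CPM (2.20, SE 0.26) and Fabp4 from 49.1 to 137 CPM (1.53, SE 0.28) were those with the smallest p. Of 13 Lpl partners and regulators 0 rose and 2 fell, among them the maturation factor Lmf2 (-0.27, SE 0.056). Of 12 other synthetases and thioesterases 3 rose and 1 fell, led by the acetyl-CoA synthetase Acss2 (1.13, SE 0.15) and the thioesterase Acot13 (0.31, SE 0.049). Of 10 lipid-sensing nuclear receptors and coactivators 3 rose and 1 fell: Nr1h3, which encodes LXR alpha, from 8.82 to 27.2 CPM (1.67, SE 0.21, adjusted p = 0.000101), Rxra (0.19, SE 0.049) and the corepressor Nrip1 (-0.47, SE 0.14). That count of 4 was 1 without Apoe KO replicate 1 and 1 with only the 2 groups in the fit. Without Apoe KO replicate 1 the count of Lpl partners was 1, and without Apoe KO replicate 2 that of synthetases and thioesterases was 2. Of 8 lysophospholipid acyltransferases Lpcat1 fell (-0.40, SE 0.053), and of 20 genes of the carnitine shuttle and beta-oxidation 2 rose and 2 fell, among them Acaa2 (-0.53, SE 0.066), Echs1 (0.32, SE 0.070) and Etfdh (-0.22, SE 0.052).

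In Apoe KO astrocytes 7 rose and 10 fell of 73 tested (median log2 -0.054), beside 17.2% of all genes. Of 8 binding and transport proteins 2 rose and 2 fell, among them the lysophosphatidylcholine carrier Mfsd2a (-0.76, SE 0.11), Slc27a3 (0.82, SE 0.15) and Fabp4, which was under 1 CPM (1.22, SE 0.27). Of 14 other synthetases and thioesterases 1 rose and 4 fell, led by Acsf2 (-0.41, SE 0.099), Acot7 (-0.31, SE 0.091) and Acot1 (-0.42, SE 0.13). Of 20 carnitine shuttle and beta-oxidation genes 0 rose and 2 fell, the dehydrogenase Acadm (-0.37, SE 0.069) and the thiolase Acaa2 (-0.24, SE 0.063). Of 12 Lpl partners and regulators 2 rose and 1 fell: the convertase Pcsk6 (0.85, SE 0.16), Vldlr (0.38, SE 0.11) and Apoc1, under 1 CPM (-1.36, SE 0.42). Lpcat3 fell (-0.26, SE 0.062), and Mboat1 (0.70, SE 0.20) and the receptor Ppara (0.38, SE 0.10) rose. These astrocyte counts rest on few libraries: the 17 calls became 7 at the lowest with 1 library left out, with APOE33 replicate 3 and Apoe KO replicates 1, 3 and 4 each lowering the count by over 1.5 times, and 9 with only the 2 groups in the fit.

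Between APOE44 and APOE33, 2 of 73 genes rose in astrocytes and 0 of 72 were called in microglia by edgeR, beside 0.703% and 0.84% of all genes. DESeq2 called 4 and 1, for which no DESeq2 share of all genes is given. The edgeR count in microglia was 1 without APOE44 replicate 5. The 2 in astrocytes were Cav1, which encodes caveolin 1, from 76.1 to 152 CPM (log2 0.97, SE 0.076, adjusted p = 8.68e-07), and the lipoprotein receptor Vldlr (0.59, SE 0.095, adjusted p = 0.00443). Between cell types, 18 of 19 tested genes of the carnitine shuttle and beta-oxidation were lower in Apoe WT microglia than in astrocytes and 1 was higher, with a median of -1.18 against -0.13 over all genes. In that comparison 89.5% of all genes were called, and 9253 of 19331 were called lower in microglia. Among the 18 were Decr1 (-2.52, SE 0.026) and Hadhb (-2.39, SE 0.032).

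Within groups, some of the genes varied together. After removal of group means and sex, the log CPM values of 22 microglia libraries correlated at r = 0.875 between Fabp3 and Fabp5, 0.716 between Fabp3 and Lpl and 0.701 between Fabp5 and Lpl. In astrocytes Acsl1 and Acsl3 had r = -0.711. Similar genes were sought among those with a symbol and a mean log CPM of at least 1. Genes with predicted-gene names (such as Gm6166, a copy of Fabp5), Xist, Tsix and genes of chromosome Y were left out. The most similar to Fabp5 in microglia were Fabp4 (0.953), S100a1 (0.929) and Taok3 (0.927), those to Fabp3 were Pqlc2 (0.936), Cnrip1 (0.924) and Wfdc17 (0.918), and those to Lpl were Tox2 (0.903), Epb41l5 (0.887) and Abcc5 (0.884). For Cd36 the values were lower, at 0.806 for Mob3b, 0.805 for Ints7 and 0.776 for Arhgap6. Acsl5 was most like Cyb5a (0.918), Acsl4 most like Tmx4 (0.799) and Acsl1 most like H6pd (0.78) in microglia. In astrocytes Acsl3 was most like Tmtc4 (0.93), Etnppl (0.92) and Utp14b (0.915), the last of which overlaps it, Fabp7 most like Kcna6 (0.769) and Acsl6 most like Ptn (0.758). These coefficients are descriptions over 22 libraries that share library preparation and depth with both genes of a pair, and the similar genes were picked as the highest of those searched. Splits inside a group enter them. Fabp5 in APOE33 microglia stood at 385, 393 and 465 CPM in replicates 1 to 3 and 591, 659 and 591 CPM in replicates 4 to 6.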

How the data were processed

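RNA-seq of 44 libraries was analysed from 1 table of raw counts per gene deposited by the authors, with no normalization. The submitters' processing notes name STAR 2.5.3a, featureCounts, edgeR 3.26.8, DESeq2 3.14 and the build hg38; the identifiers are mouse, and the sources used here name no mouse build. Of 54146 identifiers 54079 matched GENCODE M21, which gave symbols, GRCm38 positions and exon lengths. Counts from 1 to 9 were even in 62.4% to 78.7% of cases, so a count is not an independent molecule.

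With edgeR 4.0.16 under R 4.3.3, filterByExpr removed genes of low count, TMM set the scaling, and genotypes were tested by robust quasi-likelihood F tests with sex as covariate and Benjamini-Hochberg adjustment over all genes (call: adjusted p under 0.05). SE is the log2 value over the root of F. Genotypes of batch 1 were fitted per cell type (16 libraries), Apoe WT with all 22, cell types with 12 and 32. Levels are TMM-scaled CPM over all 44 libraries. The fits were tested on simulated data. Alternatives were DESeq2 1.42.0, RLE scaling, no filter, no sex term, only the 2 groups, a replicate block and leaving out each library. The genes, lists and rules (every one of the 10; at most 3 called genes per list by smallest p; 3 most similar genes) were chosen with earlier results of these data known. The values of 1 gene of these lists are not reported here.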

Additional observations from a re-analysis of the deposited data

Results flagged for a closer look

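In 6 of 80 groups of libraries 1 library stood apart from the others by Dixon's criterion at the 95% level, which flags about 1 group in 20 by chance. Astrocyte APOE33 replicate 3 was highest of its group for Fabp7 at 32.5 CPM and lowest for Acsl5 at 17.1 CPM. Apoe WT microglia replicate 3 was highest for Acsl1 at 99.6 CPM, and Apoe WT astrocyte replicate 6 highest for Acsl6 at 288 CPM. APOE44 microglia replicate 6 was lowest for Acsl4 at 160 CPM, and APOE33 microglia replicate 2 highest for Acsl6 at 1.47 CPM, where the astrocyte markers also summed to their highest value among APOE33 microglia, 89.4 CPM.

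The effect of a genotype differed between cell types, by the test of the difference itself, for 4 genes. For Apoe KO against APOE33 the microglia minus astrocyte values were 1.11 for Fabp5, 1.11 for Acsl3 and -0.42 for Acsl5, and for APOE44 against APOE33 the value was 0.24 for Acsl4.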

How the results depend on the processing

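Of 160 log2 values of the 10 genes, 89 were called, and 73 of those were called without any 1 library. RLE scaling changed no call, and on plain library totals 55 of 80 group levels moved by more than 1 SD. The count of genes called for APOE44 against APOE33 in astrocytes was 1, and it was 3 with DESeq2 and 0 without a filter on low counts, with the replicate block or with only the 2 groups; with 1 library left out it ran from 0 to 2. For APOE33 against Apoe WT in microglia it was 8, and 5 without the filter. For the APOE44 difference between cell types it was 1, and 0 without the filter or with the replicate block, and from 0 to 1 with 1 library left out. Within a cell type, same-numbered libraries of different genotypes did not deviate together throughout (r from -0.71 to 0.425). Between astrocytes and microglia r was 0.064 to 0.211 in Apoe WT and 0.004 to 0.296 in APOE33. It was 0.05 to 0.215 in APOE44 and -0.023 to 0.179 in Apoe KO. In that order 1 of 6, 3 of 6, 3 of 6 and 3 of 4 astrocyte libraries were most like the microglia library of their own number. Same-numbered libraries of the 2 cell types also have the same sex. Whether they share an animal is not known, and the main fits treated them as independent.

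Among the other fatty acid genes in Apoe KO astrocytes, 17 calls became 6 with the replicate block and 9 with only the 2 groups. Synthetases and thioesterases went from 5 to 3 without the filter, 0 with the block and 1 with the 2 groups, acyltransferases from 2 to 1 in each, Lpl partners from 3 to 1 with the block, and nuclear receptors from 1 to 0 with the block or the 2 groups. Beta-oxidation genes went from 2 to 4 with DESeq2 or without the sex term and to 1 with the block. In Apoe KO microglia nuclear receptors went from 4 to 2 without the filter and 1 with the 2 groups, and Lpl partners from 2 to 1 with the block. For APOE44 astrocytes the 2 calls became 4 with DESeq2 and 1 with the block.

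The values that changed sign were not called, and the cause was not tested. Lpl in Apoe KO against APOE33 astrocytes (0.0425) was -0.0265 without the sex term and -0.0092 with the block, Lpl in APOE44 against APOE33 microglia (0.0216) was -0.0115 without the sex term, Acsl6 in Apoe KO against APOE33 microglia (0.074) was -0.0931 without the sex term, and Acsl6 in APOE33 against Apoe WT astrocytes (-0.0052) was 0.000067 without the filter and 0.0149 with the 2 groups. With 1 library left out, APOE44 against APOE33 astrocytes ran from -0.198 to 0.221 for Fabp3, -0.280 to 0.185 for Cd36 and -0.103 to 0.0442 for Acsl3, and Apoe KO against APOE33 astrocytes from -0.396 to 0.533 for Fabp3, -0.250 to 0.0388 for Cd36 and -0.0391 to 0.0949 for Lpl. Apoe KO against APOE44 astrocytes ran from -0.272 to 0.509 for Fabp3 and -0.258 to 0.0716 for Cd36. In microglia, APOE44 against APOE33 ran from -0.0266 to 0.176 for Fabp3, -0.0376 to 0.066 for Lpl and -0.0684 to 0.0163 for Acsl3, and Apoe KO against APOE33 from -0.171 to 0.355 for Fabp7 and -0.158 to 0.388 for Acsl6. Against Apoe WT, APOE33 astrocytes ran from -0.071 to 0.0194 for Fabp5 and -0.0266 to 0.0437 for Acsl6, and Apoe KO microglia from -0.0548 to 0.267 for Fabp3 and -0.0641 to 0.0173 for Acsl1. The Apoe KO difference between cell types ran from -0.0636 to 0.113 for Acsl1, -0.0243 to 0.0365 for Acsl4 and -0.497 to 0.0341 for Acsl6, and that of APOE44 from -0.119 to 0.278 for Fabp3, -0.0834 to 0.486 for Cd36 and -0.0808 to 0.0691 for Acsl3. Fabp3 and Cd36 in astrocytes and Acsl6 in microglia rest on as few as 13, 16 and 22 counts in a library, which limits what could be detected for them.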
